A study of Caenorhabditis elegans with 2 samples.

Results

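Genes that encode regulators of mesoderm and muscle fate were examined for binding of UNC-39, a homeodomain protein of the SIX4/5 family, in L2 larvae of Caenorhabditis elegans. The 10 genes were hlh-1, unc-120, hnd-1, hlh-8, mls-2, fozi-1, let-381, sem-2, sem-4 and mls-1, a list of names that uses no measured value in its rule but was drawn up with earlier results of these data known, and they are 10 of 19973 protein-coding genes on the 6 nuclear chromosomes. The assay was chromatin immunoprecipitation followed by sequencing (ChIP-seq). Its single group consisted of 2 biological replicates from separate biosamples of strain OP186, which carries the unc-119 allele ed3 on chromosome III and the insertion wgIs186 for eGFP-tagged UNC-39. Animals were whole L2 larvae with males and females pooled, of an age given as unknown. The labels name no untagged strain or mutant as a group, so no condition could be compared, and because whole animals were used mesodermal cells were not separated from other tissues. For each gene, all summits (the base of highest signal in a peak) inside it or within 5 kb were taken from the list of 30000 regions that the authors had called on both replicates together (the pooled list) and from the list of each replicate. This gave 50 summits of 30000 in the pooled list, 56 of 30000 in replicate 1 and 36 of 24978 in replicate 2. The authors deposited the pooled list as peaks and background, the input to their test of reproducibility, which 140 of its regions passed. A summit in that list is therefore not by itself a binding site. Signal is the authors' value for each peak, ranks run from 1 for the highest signal within a list, and signals of different lists are not on one scale.

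In the worm, body wall muscle is specified by the combined action of a MyoD-family factor (hlh-1), a serum response factor relative (unc-120) and a HAND factor (hnd-1). After hatching, a single mesoblast, the M cell, gives rise to further body wall muscles, to coelomocytes, which are scavenger cells of the body cavity, and to sex myoblasts, which make the muscles of the egg-laying apparatus. The other 7 genes act in that lineage or in its muscles, and UNC-39 itself is known for roles in mesodermal and neuronal development.

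Of the peaks, 5 are shown, each as the 151 bases centred on the summit in WBcel235 (the ce11 assembly, RefSeq sequence) and on the strand of the named gene, so that the letters behind the values given further on can be read. They are the highest pooled peak around mls-1, fozi-1, hlh-1 and hlh-8, and for hnd-1 the upstream peak that both replicates listed. Capitals mark the E-box CANNTG, the site class bound by basic helix-loop-helix proteins such as HLH-1, HLH-8 and HND-1.
mls-1, chrIII:7465379-7465529, plus strand: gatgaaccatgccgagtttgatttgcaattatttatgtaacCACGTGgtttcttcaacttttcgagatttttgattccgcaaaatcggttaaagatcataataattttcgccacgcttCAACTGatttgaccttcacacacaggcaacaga
fozi-1, chrIII:9286844-9286994, plus strand: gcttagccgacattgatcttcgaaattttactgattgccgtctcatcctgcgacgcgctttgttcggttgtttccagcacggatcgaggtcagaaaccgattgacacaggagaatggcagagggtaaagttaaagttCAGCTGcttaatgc
hlh-1, chrII:4516511-4516661, plus strand: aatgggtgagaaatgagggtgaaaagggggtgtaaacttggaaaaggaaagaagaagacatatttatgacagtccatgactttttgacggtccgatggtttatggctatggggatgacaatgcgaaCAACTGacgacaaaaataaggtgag
hlh-8, chrX:8118997-8119147, plus strand: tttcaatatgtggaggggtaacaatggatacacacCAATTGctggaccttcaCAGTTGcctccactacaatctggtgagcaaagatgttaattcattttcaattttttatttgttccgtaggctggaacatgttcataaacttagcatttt
hnd-1, chrX:11683181-11683331, plus strand: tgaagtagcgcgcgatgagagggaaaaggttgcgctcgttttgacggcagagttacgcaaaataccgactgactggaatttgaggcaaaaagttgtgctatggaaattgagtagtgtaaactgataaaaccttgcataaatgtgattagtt
The mls-1 peak holds 2 E-boxes in these bases, CACGTG and CAACTG, and the hlh-8 peak holds CAATTG and CAGTTG. The fozi-1 peak has 1, CAGCTG, the form that MyoD-family proteins are known to prefer, and the hlh-1 peak has 1, CAACTG. The hnd-1 peak has none in these bases. Of the hnd-1 peaks not shown, the highest has 1, CAGTTG, over the same length. The other one that both replicates listed has 1, CAAATG.

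No member had one of the authors' 140 thresholded peaks, those that passed their test of reproducibility, inside it or within 5 kb. Such a peak lay in the window of 1.72% of protein-coding genes, so a count of 0 of 10, which allows a share of up to 30%, cannot be told from that background. The lowest thresholded peak had a signal of 45.9 and the highest around a member, upstream of sem-4, had 36.4. The 140 thresholded summits were the 140 of highest signal in the pooled list. No member had a summit among the 300 highest of that list, which include them, where 3.49% of genes did. This 0 of 10 also allows a share of up to 30%. Among the 3000 highest (10% of that list) there was a summit at 4 of the 10 members, sem-4, let-381, unc-120 and mls-1, against 30.2% of genes. With the added requirement of a partner summit within 100 bp in both replicates' lists, 3 members were left, sem-4, let-381 and unc-120, against 22.1% of genes. No member had a pooled summit of the highest 3000 whose partners were also among the highest 3000 of both replicates, where 4.64% of genes did. That count of 0 allows up to 30% and depends on the 100 bp limit. The summit of rank 430 in the let-381 window had replicate 1's summit of rank 776 at 60 bp. Replicate 2's summit of rank 583 was 104 bp away and so did not count. The median of the members' highest pooled signals was 22.0, beside 22.1 over protein-coding genes with a pooled summit in their window. The median rank of the members' highest summits was 5760, beside 5510 over the same genes. These background medians leave out 665 genes (3.33%) that had no pooled summit. With those genes counted as 0, the median signal was 21.9.

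**Figure D1:**
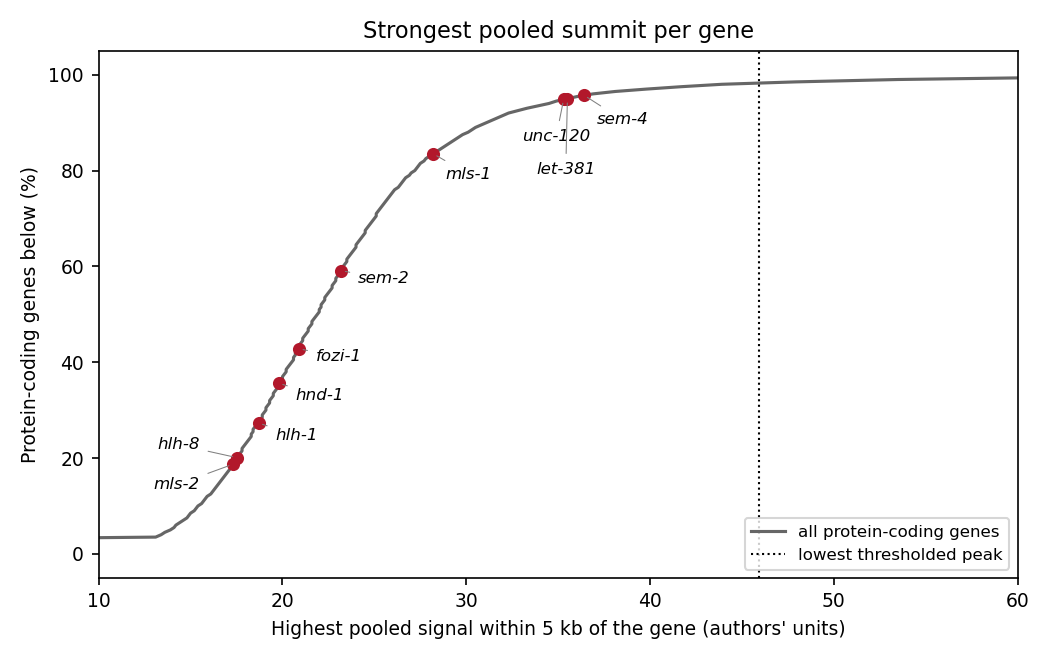
Highest pooled signal within 5 kb of each gene (horizontal axis, authors' units, shown from 10 to 60) against the percent of 19973 protein-coding genes with a lower highest signal (vertical axis). Red points are the 10 members, which run from mls-2 at 17.3 to sem-4 at 36.4, all left of the dotted line at 45.9, the lowest thresholded signal.

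Summits were about as dense around the members as over the genome. The member windows covered 160 kb in all and held 0.312 pooled summits per kb, beside 0.299 per kb over the 6 nuclear chromosomes, and 5 of the 50 (10%) were among the 3000 highest, the share that the list has by construction. Of the 50 summits, 27 lay inside a member, 14 upstream and 9 downstream. By annotation, 17 were in introns (34%), 16 between protein-coding genes (32%), 15 in coding exons (30%) and 2 in untranslated exons (4%). Over all pooled summits the shares were 29.5%, 32.6%, 32.9% and 4.9%. The stretch between 500 bp before and 100 bp after an annotated protein-coding 5' end, taken as the promoter, held 9 of the 50 (18%) and 15.7% of all pooled summits. For 19973 genes the median number of pooled summits per window was 4, and for the members it was 5, in windows with a median length of 12.0 and 13.8 kb. Other genes crowd these windows: the nearest protein-coding 5' end belonged to a member for 31 of the 50 summits. Annotated 5' ends in the worm are often trans-splice sites and can lie downstream of the true start of transcription.

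**Figure D2:**
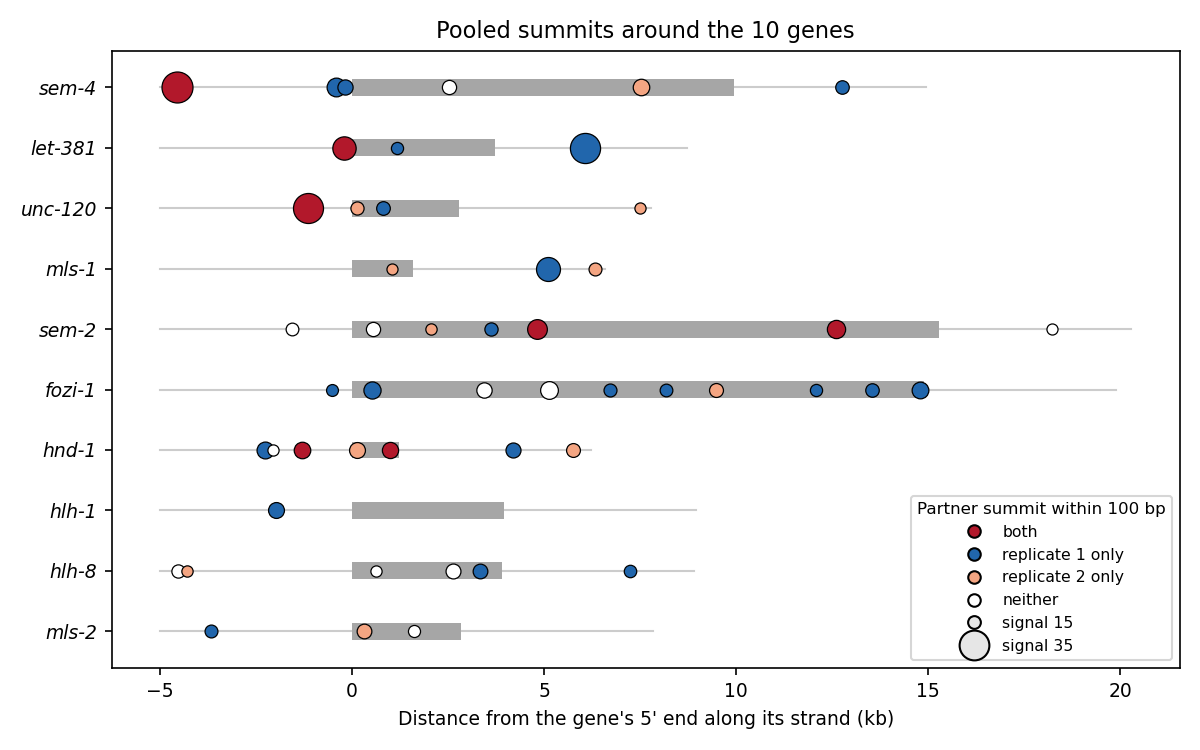
Pooled summits (circles) around each gene by distance from its 5' end in kb (horizontal axis), with the gene as a grey bar and the 5 kb flanks as a thin line. Circle area grows with the square of the pooled signal, and colour shows whether a replicate's list had a summit within 100 bp: the 3 largest circles are at sem-4, let-381 and unc-120, and 7 of the 50 have a partner in both lists.

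Agreement between the replicates was limited around the members, as it was over the whole list. Of the 50 pooled summits, 7 (14%) had a partner within 100 bp in both replicates, where 19.0% of all 30000 did. For 21 there was a partner in replicate 1 only, for 11 in replicate 2 only and for 11 in neither. Over all pooled summits these shares were 36.4%, 27.2% and 17.4%, beside 42%, 22% and 22% at the members. Among the 3000 highest pooled summits, agreement was higher. There 66.6% had a partner in both replicates, as did 3 of the 5 member summits in that class (60%). The 7 member summits with a partner in both were 1 each at unc-120, let-381 and sem-4, 2 at hnd-1 and 2 at sem-2. Taken alone, replicate 1 had a summit among its 3000 highest at 6 members and replicate 2 also at 6, against 31.4% and 30.3% of genes. Only fozi-1, let-381 and sem-4 were in both of these counts. At let-381 both replicates had such a summit near a 5' end of the neighbouring gene hrpk-1. Replicate 1 had a further one, of rank 1210, 181 bp upstream of the 5' end of let-381 itself. The fozi-1 summits of the 2 replicates were at opposite ends of the gene. Those at sem-4 were 393 and 174 bp upstream of its 5' end in replicate 1 and 4558 bp upstream in replicate 2.

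Among the 3 members for body wall muscle, hlh-1, unc-120 and hnd-1, unc-120 had the highest summit. This gene (WBGene00006844, chromosome I, 8460225 to 8463015, plus strand) encodes the MADS-box protein that acts with HLH-1 and HND-1. Its highest pooled summit, with a signal of 35.3 and rank 440, lay between protein-coding genes, 1155 bp upstream of the 5' end. Replicate 1 had its partner at the same base with a signal of 18.8 and rank 950. In replicate 2 the partner was 84 bp away with a signal of 12.0 and rank 5260. Both lists thus held the peak, high in replicate 1 and lower in replicate 2. A highest signal at or above this one was found around 5.11% of protein-coding genes. The 5' end of a noncoding RNA gene, D1081.16, was 29 bp from the summit, closer than that of unc-120. The sequence within 100 bp had a GC content of 54.2%, the highest of the 50, beside a median of 38.3% over all pooled peaks and 50.2% over the thresholded ones; the part of base composition in its signal was not tested. The other 3 pooled summits at unc-120 had signals from 13.1 to 16.0, below the list's median of 17, and 2 of them were in its coding exons.

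At hlh-1 (WBGene00001948, chromosome II, 4518574 to 4522528, plus strand), the MyoD-family gene, there was a single pooled summit. It lay 1988 bp upstream of the 5' end with a signal of 18.7 and rank 10881. Replicate 1 had a partner 24 bp away, with a signal of 11.9 and rank 9635, and replicate 2 listed no summit anywhere in the hlh-1 window. It was the one member with no summit in a replicate. Replicate 1 also listed a pair of intron summits 212 and 414 bp downstream of a 5' end, with signals of 13.1 and 11.2, that had no partner in the pooled list. Around 72.7% of protein-coding genes the highest pooled signal was at least that of hlh-1.

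The HAND gene hnd-1 (WBGene00001981, chromosome X, 11684561 to 11685788, plus strand) is the shortest member, at 1228 bp, and had the most summits per kb, 0.623, with 7 in its window. The signals were close together, from 13.1 to 19.8. The highest, at rank 8679, lay 2268 bp upstream of hnd-1 but nearer to T04F8.7, and only replicate 1 had a partner, with a signal of 15.4 and rank 3028. The second, 1305 bp upstream with a pooled signal of 19.4, is the peak printed above. It had partners within 1 and 3 bp, with signals of 9.50 in replicate 1 and 7.79 in replicate 2, at ranks 19395 and 21161. A coding-exon summit 975 bp downstream of the 5' end likewise had a partner in both, at ranks 22945 and 20908. So the positions that the replicates shared at hnd-1 were low in both lists. In replicate 2 the highest summit of the window was elsewhere, in a coding exon 205 bp downstream of the 5' end, with a signal of 16.0 and rank 1363; replicate 1 listed none within 100 bp of the matching pooled summit.

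Of the 4 members that pattern the M lineage, hlh-8, mls-2, fozi-1 and let-381, the highest pooled summit was in the let-381 window. This gene encodes a forkhead factor of the FoxF family that is needed for coelomocyte fate (WBGene00002601, chromosome I, 6320289 to 6324019, minus strand). Its promoter summit, 220 bp upstream of the 5' end, had a pooled signal of 27.4 and rank 1761. The partner in replicate 1 was 39 bp away with a signal of 18.0 and rank 1210, and that in replicate 2 was 4 bp away with a signal of 11.6 and rank 6003. Of the 5 member summits among the 3000 highest, this was the only one in the promoter of a member. A higher summit in the same window (signal 35.5, rank 430) lay 2338 bp past the 3' end of let-381 and 79 bp upstream of a 5' end of hrpk-1, which encodes an hnRNP K relative. There replicate 1 had a signal of 19.3 and rank 776. Replicate 2 had a signal of 18.9 and rank 583, with its summit 104 bp from the pooled one and so just past the 100 bp limit for a partner. Distance alone does not say which of the neighbouring genes a peak acts on.

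At hlh-8 (WBGene00001953, chromosome X, 8116457 to 8120351, plus strand), the Twist gene of the worm, the 6 pooled summits had signals from 13.2 to 17.5, around or below the median of the list. The highest, in an intron 2437 bp downstream of a 5' end and of rank 13542, had no partner in either replicate. The nearest summit of replicate 1 was 652 bp away and that of replicate 2 was 6880 bp away. Replicate 2 listed a single summit around hlh-8, at a signal of 14.4 and rank 2327, in a coding exon of the neighbouring gene K07E3.1. Its pooled partner had a signal of 13.3 and rank 28698, and replicate 1 had none there. Thus the 2 replicates shared no position around hlh-8.

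The homeodomain gene mls-2 (WBGene00003377, chromosome X, 4758804 to 4761640, minus strand), which acts upstream of hlh-1 in the M lineage, had 3 pooled summits with signals from 14.2 to 17.3. The highest was in a coding exon 298 bp downstream of the 5' end, at rank 14154, the lowest rank of any member's highest summit. Replicate 2 had a partner at 74 bp with a signal of 7.46 and rank 23363. Replicate 1 had its own summit 227 bp away, in an intron, with a signal of 16.1 and rank 2395. A highest pooled signal at or above that of mls-2 was found around 81.3% of protein-coding genes, and for hlh-8 the share was 79.9%.

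The zinc finger gene fozi-1 (WBGene00010453, chromosome III, 9281780 to 9296675, plus strand) acts in the M lineage for body wall muscle and coelomocyte fates. With 14896 bp it is one of the longer members and had the most pooled summits, 10, of which 9 were inside the gene. Signals ran from 14.0 to 20.9. The highest, in an intron 5138 bp downstream of a 5' end and of rank 7130, had no partner within 100 bp, but summits lay 137 bp away in replicate 1 (signal 15.4, rank 3005) and 124 bp away in replicate 2 (signal 7.83, rank 20913). The intron summit 506 bp downstream of the 5' end had a pooled signal of 20.2 and a partner in replicate 1 alone, with a signal of 15.9 and rank 2630. In replicate 2 the highest summit was in an untranslated exon 14576 bp downstream, with a signal of 14.8 and rank 2073, and had no pooled partner. None of the 10 pooled summits had a partner in both replicates.

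The remaining 3 members act in the sex myoblasts or in the muscles made from them. The Spalt-family zinc finger gene sem-4 (WBGene00004773, chromosome I, 7038900 to 7048832, plus strand), which is also known for neuron fates, had the highest pooled summit of all members. It lay between protein-coding genes 4562 bp upstream of the 5' end, with a signal of 36.4 and rank 371. In replicate 1 the partner was 15 bp away with a signal of 13.5 and rank 5846, and in replicate 2 it was 4 bp away with a signal of 18.5 and rank 652. This is the reverse of unc-120, since here replicate 2 was high and replicate 1 lower. The 5' end of the noncoding RNA gene F15C11.5 was 28 bp from the summit. Highest signals at or above this one were found around 4.27% of protein-coding genes. Closer to sem-4, 411 and 197 bp upstream of the 5' end, the pooled list had summits with signals of 22.1 and 17.9. Both had partners in replicate 1, with signals of 19.7 and 17.3 at ranks 699 and 1563, and neither had one in replicate 2. The promoter region of sem-4 was thus high in replicate 1 and without a summit in replicate 2.

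The SoxC gene sem-2 (WBGene00004771, chromosome I, 5204530 to 5219815, minus strand), which promotes sex myoblast fate, had 7 pooled summits with signals from 13.0 to 23.2. The highest was in an intron 221 bp downstream of one of its internal 5' ends, at rank 4386. Replicate 1 had a partner at the same base with a signal of 12.3 and rank 8348, and replicate 2 had one 65 bp away with a signal of 7.88 and rank 20648. Replicate 2 had a higher summit in the same intron, 374 bp downstream of that 5' end, with a signal of 14.7 and rank 2128. A second intron summit, 920 bp downstream of another internal 5' end, had a pooled signal of 21.5. It had partners in both lists, with signals of 8.21 and 10.1 at ranks 26600 and 10004. Highest signals at or above that of sem-2 occurred around 40.9% of protein-coding genes.

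For mls-1 (WBGene00003376, chromosome III, 7460341 to 7461934, plus strand), a T-box gene that sets uterine muscle fate, the one high summit belonged by position to a neighbour. With a pooled signal of 28.2 and rank 1536, it lay 3520 bp past the 3' end of mls-1 and 151 bp upstream of the 5' end of fum-1, which encodes fumarase. Replicate 1 had a partner 5 bp away with a signal of 17.8 and rank 1377. The nearest summit of replicate 2 was 146 bp away with a signal of 11.1 and rank 7289. Inside mls-1 there was 1 pooled summit, in a coding exon, with a signal of 13.0 and rank 29883, near the bottom of the list, and a partner in replicate 2 alone at rank 6931.

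**Figure D3:**
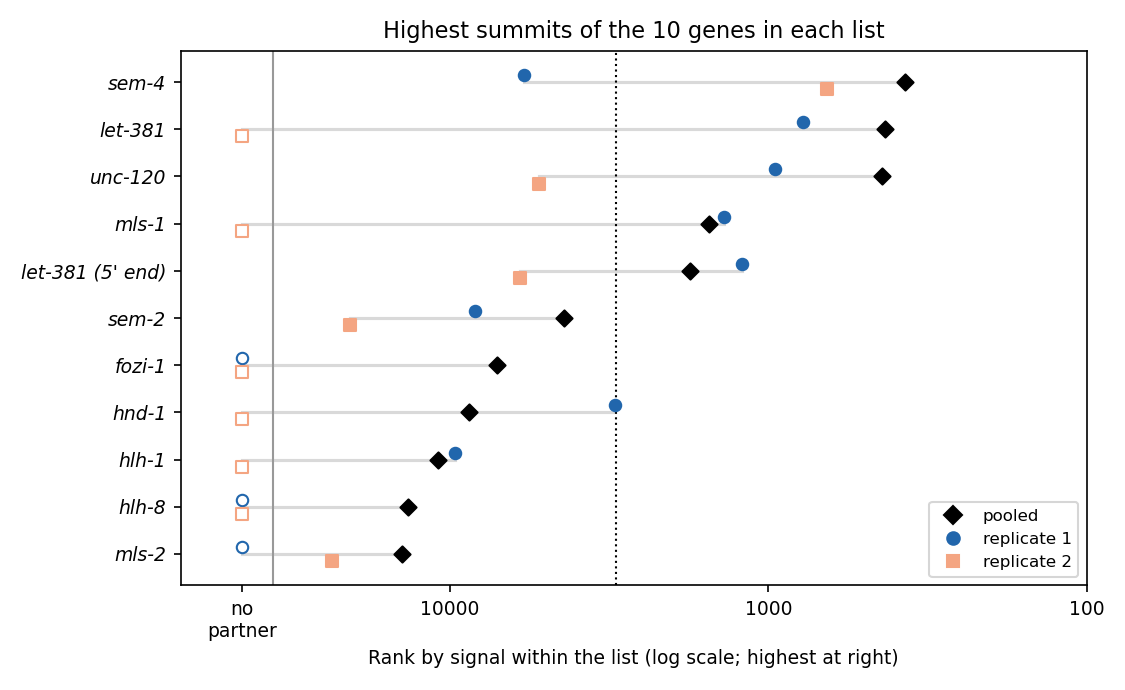
Rank by signal of the highest pooled summit of each member, and of the let-381 promoter summit, in the pooled list (black diamonds) and of its partner within 100 bp in replicate 1 (blue circles) and replicate 2 (orange squares), on a log scale with the highest ranks at the right. Open symbols mark no partner, the dotted line is rank 3000, and no row has all 3 symbols to the right of it.

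Across the members, the highest pooled summit had a partner in both replicates at 3 genes (unc-120, sem-2 and sem-4). It had one in replicate 1 only at 4, in replicate 2 only at mls-2 and in neither at hlh-8 and fozi-1. Of the 4 members with a summit among the 3000 highest, 3 were on chromosome I (unc-120, let-381 and sem-4) and 1 on chromosome III (mls-1), while hlh-8, mls-2 and hnd-1 on X had none. The share of protein-coding genes with such a summit was 31.4% on chromosome I and 36.7% on X. Noncoding genes had a 5' end within 100 bp of 5 of the 50 member summits (10%), of 4.85% of all pooled summits and of 8.53% of the 3000 highest.

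The letters around the summits were searched, on both strands and within 100 bp, for 8 short patterns. The SIX-family cores TGATAC and TGACAC were in 3 and 5 of the 50 member peaks (6% and 10%) and in 6.74% and 8.23% of all pooled peaks. Among the members' highest peaks, only that of fozi-1 held either core, TGACAC. Neither core was in the highest peak of sem-4, let-381 or unc-120, which says only that these letters are not in that window. The E-box CANNTG was in 36 (72%) and in 58.8% of all pooled peaks. Its forms CAGCTG and CATATG, both included in CANNTG, were in 3 and 4 member peaks (6% and 8%) and in 4.91% and 3.77% of all. CATATG, the form that the worm Twist protein is known to bind with its E partner, was in 2 peaks at unc-120, the highest peak of sem-2 and 1 peak of fozi-1. The forkhead pattern GTAAACA was in 2 member peaks (4%) and 2.27% of all, the GATA pattern TGATAA in 9 (18%) and 16.4%, and GAGAGA in 7 (14%) and 13.9%. Several of the 50 peaks share a window, and no test was run on these shares. Median GC content was 39.8% in member peaks and 38.3% in all pooled peaks.

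**Figure D4:**
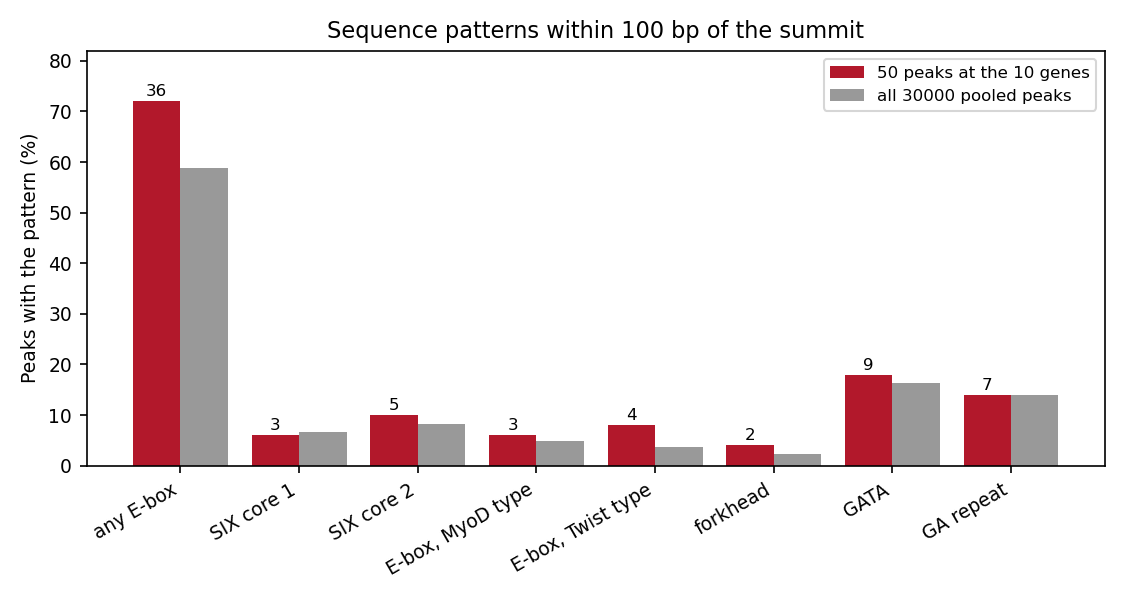
Percent of peaks with each pattern within 100 bp of the summit (vertical axis) in the 50 peaks at the members (red, with the number of peaks above the bar) and in all 30000 pooled peaks (grey). The cores labelled 1 and 2 are TGATAC and TGACAC, in that order, and the bars are farthest apart for any E-box (CANNTG), at 72% and 58.8%.

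Other genes of the mesoderm pathway, 31 in 4 lists, had a pooled summit of the highest 3000 in their windows at 17 (54.8%), beside 4 of 10 members and 30.2% of all genes. At 14 (45.2%) such a summit had a partner in both replicates, beside 22.1% of all genes. Some partners were low in 1 replicate's list. Ranks in replicates 1 and 2 were 17760 and 4162 at pal-1, 25495 and 1696 at myo-3, and 2869 and 22301 at egl-27. The windows of these 31 were longer than most, with a median of 14.9 kb against 12.0, and the lists were chosen with earlier results of these data known, so the counts are a description. Their median highest signal was 25.4. Embryonic specification genes were at 4 of 7 (pal-1, med-2, ceh-51 and skn-1), M lineage regulators at 5 of 11 (sma-9, lag-1, egl-27, ceh-34 and eya-1), targets and migration genes of the sex muscles at 2 of 6 (ceh-24 and egl-15) and body wall muscle structure genes at 3 of 7 (myo-3, unc-15 and act-4).

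Position differed widely among them. At unc-15, the paramyosin gene, the summit was 3 bp upstream of the 5' end with a pooled signal of 29.8 and ranks of 6297 in replicate 1 and 1677 in replicate 2. At ceh-34, a SIX-family gene that acts downstream of let-381 in coelomocyte specification, it was 2433 bp upstream, with a signal of 26.0 and ranks of 4161 and 6531. For sma-9, a zinc finger gene of dorsoventral M lineage pattern, it was 3044 bp upstream with a signal of 38.3 and ranks of 1913 and 263. The highest was at ceh-24, a homeobox gene of the vulval muscles, with a signal of 46.8, rank 131 and ranks of 104 and 348 in the replicates, and it is one of the authors' thresholded peaks. It lay 4552 bp upstream of ceh-24 and only 1442 bp from the nearest 5' end, that of swan-1. At 7 of the 14 genes (pal-1, med-2, eya-1, ceh-24, egl-15, myo-3 and act-4) another gene had the nearer 5' end.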

How the data were processed

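Peaks were called by the authors on the ce11 alignments of each replicate and of both together, each with a control, and were thresholded with the irreproducible discovery rate, per the text listings deposited beside the peak files. Aligner, caller, versions and cut-offs: not given in the sources used here. Deposited signal, from narrowPeak column 7, is an enrichment value set by the authors and was used only within a list. The lists hold no read counts, so depth is unknown, and a limit for a count of 0 (3 counts of the total) covers counting error only. The ce10 lists were not used.

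Genes came from Ensembl release 115 for WBcel235 and sequence from RefSeq for the same assembly. Windows ran 5 kb past each gene, summits matched within 100 bp, and tied signals took the better rank. Every protein-coding gene was treated the same way to give the background. With 1 group no test was run. The named summits are each member's highest and any among the highest 3000; others at the members, and noncoding neighbours, were named after their values were seen. Related genes are named where such a summit had partners in both replicates. Members, lists and patterns were chosen with earlier results of these data known. Counting was tested on simulated data, in Python 3.11.15 with pandas 2.3.3. Alternatives changed the window, the rank limit, the partner distance and the list used.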

Additional observations from a re-analysis of the deposited data

How the results depend on the processing

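With any of the windows, or with only summits nearest to a member's own 5' end, no member had a thresholded summit or one among the 300 highest. Of 46 values under other settings, 26 kept within 1.5 times the count or the spread between replicates, and 20 did not. That spread, an SD of 0.919, was between the median highest signals of the replicates' own lists, not on the pooled scale. Several of the 26 are counts of 0 that stayed at 0. The 20 include the medians of single replicates, which are on other scales than the pooled one. Counts also change with the length of the window, so this tally does not measure how stable the results are.

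The count of members with a summit among the 3000 highest was 2 with flanks of 2 kb (18.5% of genes) and 0 within gene spans alone (8.43%). All those summits thus lay outside the genes. Among the 600 highest there were 3 members (6.91% of genes). Pooled summits numbered 77 with 10 kb flanks, 27 within gene spans and 31 by nearest 5' end. Those with a partner in both replicates numbered 11 with 10 kb flanks, 3 within gene spans, 4 with partners within 50 bp (12.3% of all pooled summits) and 11 within 200 bp (27.6%).

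The median highest signal was 20.1 with 2 kb, 25.0 with 10 kb, 17.5 within gene spans (9 members) and 20.9 by nearest 5' end (9 members). Medians over all genes are not given for these settings, so whether the members moved with the background cannot be told. With 1 replicate's list alone the members' median ran from 14.7 to 16.0, on those lists' own scales, which are not comparable with the pooled one. Within 50 bp of the summit, CANNTG was in 21 of the 50 member peaks (36.2% of all pooled peaks). The SIX-family core TGACAC was in 4 (4.14% of all) and TGATAC in 0 (3.34%). CATATG was in 3 (1.89%), CAGCTG in 0 (2.57%) and GTAAACA in 1 (1.08%). TGATAA was in 6 (8.65%) and GAGAGA in 6 (7.55%). Depth is unknown, so whether more reads would change ranks was not tested. No paired analysis was possible because there is 1 group.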
